A study of Mus musculus with 66 samples.

Results

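Integrins are receptors made of an alpha and a beta chain that join the matrix outside a cell to its actin skeleton. The chain pair sets which matrix protein is held: alpha 3, alpha 6 and alpha 7 with beta 1 bind laminins, the main proteins of the basement membrane, while alpha 5 with beta 1 binds fibronectin and alpha v pairs with several beta chains to bind proteins with an RGD motif. In skeletal muscle alpha 7 beta 1 is a laminin receptor of the fibre membrane and its junction with the tendon. Melusin, the product of Itgb1bp2, is a protein of heart and skeletal muscle that binds the inner tail of beta 1.

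The mRNA levels of 9 genes of this family are described here: the laminin-binding alpha chains Itga3, Itga6 and Itga7, the RGD-binding alpha chains Itga5 and Itgav, the beta chains Itgb1, Itgb3 and Itgb5, and Itgb1bp2. They were taken by symbol from a table of 22489 genes, and 9 of the 9 were found. The table holds mRNA-Seq of C2C12, a mouse myoblast line that leaves the cell cycle and forms myotubes when serum is lowered, in 10 lines with 2 libraries each. WT cells carried no transgene, and 9 lines carried a GFP-tagged histone H3 cDNA under a doxycycline-inducible promoter, brought in with a transposon, selected with doxycycline and G418 and sorted for GFP. The tagged proteins were H3.1, H3.2 and H3t, which are of the H3.1/H3.2 type, and, of the H3.3 type, H3.3 itself, H3mm7, H3mm11, H3mm12, H3mm13 as well as H3mm16. The pair of columns headed H3mmT was taken as H3t. Growth cells were harvested below confluence in medium with 20% fetal bovine serum, and differentiated cells were harvested 48 h after confluent cells were moved to 2% horse serum. Each of the 20 libraries is 1 line in 1 state, with no repeat culture, so each p-value below measures the spread between lines. Whether doxycycline was present at harvest is not given in the sources used here.

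Values are FPKM, fragments scaled to exon length and to the mapped reads of the library. They are per length, so levels of different genes are set side by side below as a description. How evenly reads covered the genes was not tested. The depth of the libraries is unknown, so no counting interval is given. The 2 WT libraries stood apart from the rest. Their FPKM summed to 409319 and 465247, against 583613 to 894105 in the other 18, and Gapdh, an enzyme of glycolysis, was at 0.263 to 0.361 FPKM against 783 to 2094. Some state differences and correlations are therefore given without WT as well. Ranges over 10 lines, shares and correlations with the nearest genes include WT. The muscle markers were present: Myod1, a regulator of the myogenic programme, lay between 1.61 and 110 FPKM in growth cells, and Myh3, the embryonic myosin heavy chain, between 54.9 and 1060 FPKM in differentiated cells. Of 10 muscle markers 8 were called higher in differentiated cells, of which Ckm and Myh3 passed the filter on low values only through that state, and 5 of 5 proliferation markers were lower. Of the markers of other cell types, the endothelial genes Pecam1, Kdr and Tek, the leukocyte and platelet genes Ptprc, Csf1r, Cd3e and Gp9, the epithelial genes Epcam, Cdh1 and Krt5 and the neural genes Snap25, Rbfox3 and Gfap were under 1 FPKM in every library. The sum of 4 endothelial markers was 0.237 to 7.68 FPKM in growth and 0.0179 to 2.06 FPKM in differentiated cells, with Cdh5 at up to 7.53 and 1.90 FPKM, and that of 7 leukocyte and platelet markers was at most 9.73 FPKM and that of 4 neural markers at most 1.09 FPKM in any library. The keratin gene Krt14 was the exception in level, at 55.9 to 86.9 FPKM in growth cells and 4.50 to 26.0 FPKM in differentiated cells, and it made up nearly all of the sum of the 4 epithelial markers, which was 55.9 to 86.9 and 4.60 to 26.0 FPKM. The part of Krt14 and Cdh5 in the results below was not tested. In bulk RNA, fewer cells of a type and less RNA per cell cannot be told apart.

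In the mm9 build, Itga6 lies at chr2:71583673-71696473 and Itgav at chr2:83564554-83647073, both on the plus strand of the same chromosome. Itgb1 lies at chr8:131209554-131257100, Itga7 at chr10:128370869-128395333, Itgb5 at chr16:33829751-33949239 and Itgb1bp2 at chrX:98644427-98648880, all on the plus strand. Itga3, at chr11:94905788-94938115, and Itga5, at chr15:103174720-103197194, are on the minus strand, and Itgb3 is at chr11:104469370-104531790 on the plus strand. The gene bounds of Itga7 overlap a U6 snRNA gene on the same strand and the minus-strand gene Mettl7b, which was at most 0.644 FPKM in any library. Itga6 overlaps 4 noncoding RNA genes or pseudogenes, on both strands, and Itgav 2 on the other strand, and whether reads were split from theirs by strand is not given in the sources used here.

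Itga7 rose in 10 of 10 lines and was the most abundant alpha chain in each differentiated library. Itgb1bp2 went from under 0.4 FPKM in growth cells to a median of 26.4 FPKM, Itgb5 and Itga6 rose less, Itgav fell, and Itgb1, the common partner, kept the highest median of the 9 genes in both states. The states were compared with limma on log2(FPKM + 1), with 1 FPKM as the pseudocount, over the 10954 genes that averaged 1 FPKM or more, and a gene was called at a Benjamini-Hochberg adjusted p under 0.05. Of the 9 genes 4 were called higher and 1 lower, where 30.5% of all genes tested were called higher and 28.1% lower. With the line as a block, which uses the pairing of the 2 libraries of a line, 4 were called higher and 3 lower, where the shares of all genes were 37% and 33.3%. When a change of 1 or more in log2 units was asked for as well, 2 were higher and 0 lower, where the shares of all genes were 8.87% and 8.41%. The 10 differentiated libraries lay wholly above the 10 growth libraries for 2 of the 9, against 8.85% of the genes tested, and wholly below for 0, against 8.74%. Itgb1bp2 is in each of these counts of higher genes. It passed the filter on low values only through its differentiated libraries, so its place in the counts adds no support.

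**Figure D1:**
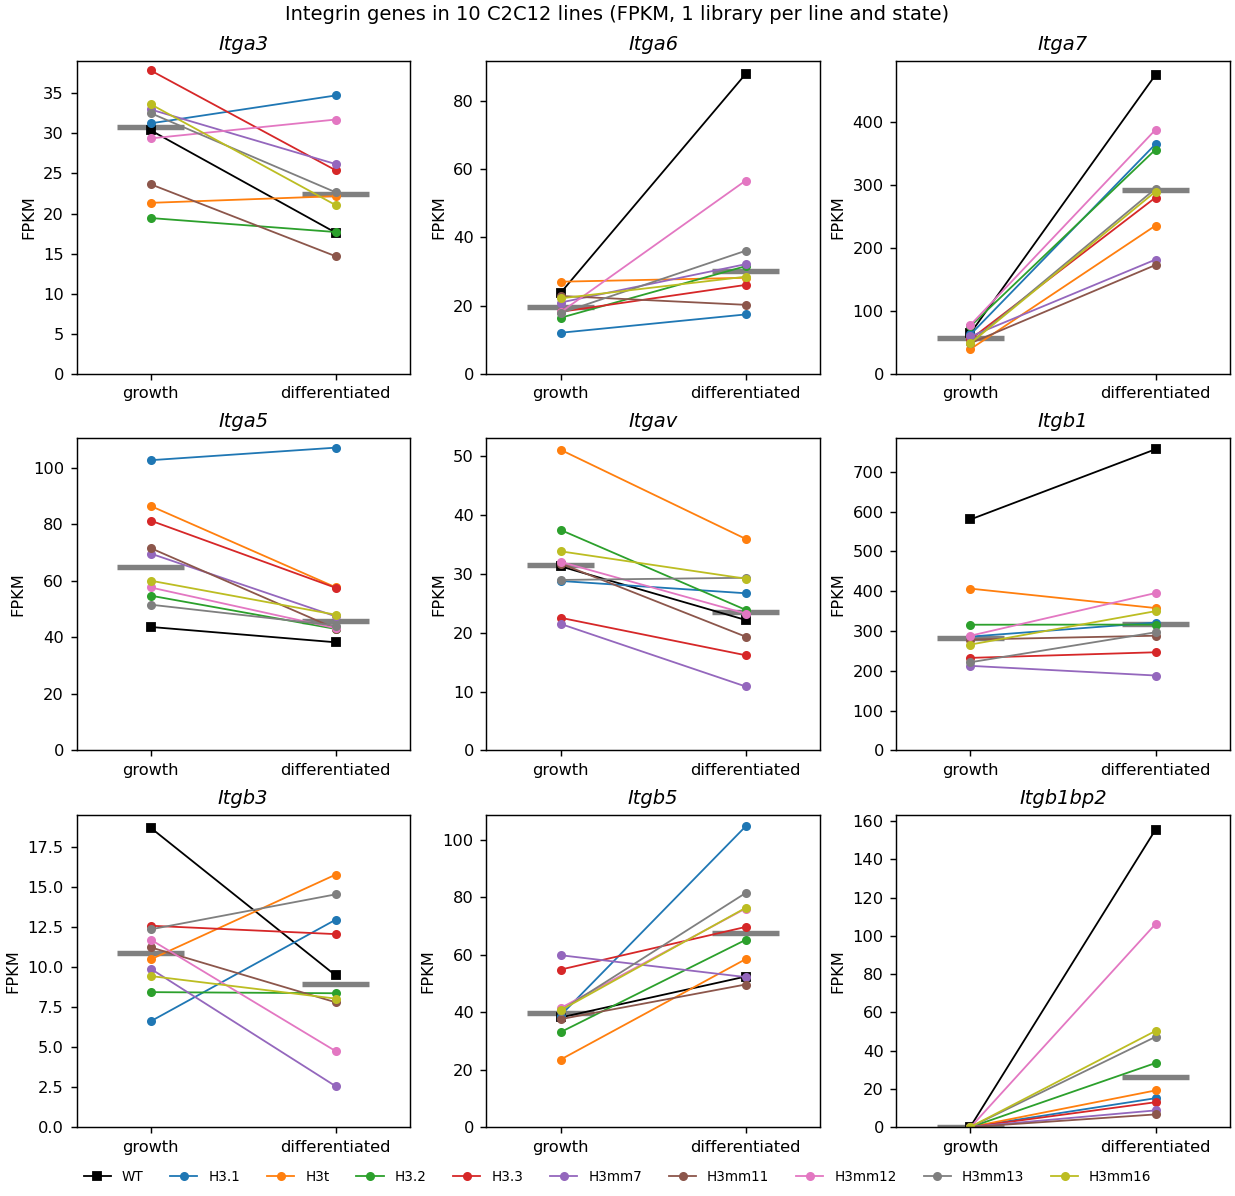
FPKM of the 9 genes (y axis, linear from 0, a scale per gene) in growth and differentiated cells (x axis). Each point is 1 library, a line joins the 2 libraries of a cell line, WT is the black square, and grey bars are medians of 10 lines. Itga7 and Itgb1bp2 are the genes whose 2 states do not overlap, and WT is the highest library for Itgb1 in both.

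Itga7 encodes a laminin-binding chain of muscle. It lay between 39.1 (H3t) and 77.4 FPKM (H3mm12) in growth cells, with a median of 56.9, and between 173 (H3mm11) and 476 FPKM (WT) in differentiated cells, with a median of 292. The lowest differentiated library was above the highest growth library. The mean was 57.9 ± 12.3 FPKM (SD, n = 10) in growth and 304 ± 94.8 FPKM in differentiated cells, and the medians differed 5.13-fold. The limma difference was 2.34 on the log2 scale (SE 0.17, adjusted p = 1.99e-10). The ratio of the 2 states within a line ran from 3.07 in H3mm7 to 7.39 in WT, so the size of the rise varied between lines while its direction did not. Without WT the difference was 2.28 (limma adjusted p = 5.91e-10).

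Itgb1bp2 was close to the floor in growth cells, at 0.0770 to 0.373 FPKM in 9 lines, and it was listed at 0 in H3mm12. In differentiated cells it lay between 6.73 (H3mm11) and 156 FPKM (WT), with a median of 26.4. It passed the filter on low values only through its differentiated libraries, so its call as higher is given as a description. The difference of 4.67 on the log2 scale (SE 0.43, limma adjusted p = 7.75e-09) depends on the pseudocount, and was 6.85 with 0.1 FPKM and 2.77 with 5 FPKM. Without WT the difference was 4.43. Its spread among differentiated lines was the widest of the 9 genes, 23.1-fold from the lowest to the highest line, where Itga7 spanned 2.75-fold.

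Itga6, the other alpha chain called higher, makes laminin receptors with beta 1 or beta 4. It ran from 12 (H3.1) to 27.0 FPKM (H3t) in growth cells, with a median of 19.5, and from 17.4 (H3.1) to 88.0 FPKM (WT) in differentiated cells, with a median of 30.0. The ranges overlapped, and 9 of 10 lines rose. H3mm11 was the line that did not, at 22.8 FPKM in growth and 20.2 FPKM in differentiated cells. The difference was 0.72 on the log2 scale (SE 0.22, limma adjusted p = 0.00774), and 0.59 without WT (adjusted p = 0.00723).

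Itga3, which encodes the third laminin-binding chain, did not share this direction. It lay between 19.4 (H3.2) and 37.9 FPKM (H3.3) in growth cells, with a median of 30.8, and between 14.7 (H3mm11) and 34.7 FPKM (H3.1) in differentiated cells, with a median of 22.4. It was lower in 7 of 10 lines, and the ranges overlapped. The difference of -0.33 on the log2 scale (SE 0.15) missed the threshold in the limma fit without a line term (adjusted p = 0.0616). With the line as a block the adjusted p was 0.0132. Over the 18 alternatives the adjusted p ran from 0.0132 to 0.136.

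The RGD-binding alpha chains were lower in most differentiated libraries. Itgav lay between 21.5 (H3mm7) and 51.1 FPKM (H3t) in growth cells, with a median of 31.5, and between 10.9 (H3mm7) and 35.9 FPKM (H3t) in differentiated cells, with a median of 23.6. The same lines were at the bottom and the top in both states, and 9 of 10 lines were lower after differentiation, with H3mm13 at 29.0 and 29.3 FPKM the exception. The difference was -0.44 on the log2 scale (SE 0.18, limma adjusted p = 0.0359). This call was near the threshold: it was lost without WT (adjusted p = 0.0550), without H3.2 (0.0721), without H3mm11 (0.0764), without H3mm12 (0.0616) and without the filter on low values (0.0550), and it was stronger with the line as a block (0.000647).

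Itga5, the alpha chain of the fibronectin receptor, lay between 43.7 (WT) and 102.7 FPKM (H3.1) in growth cells, with a median of 64.9, and between 38.3 (WT) and 107 FPKM (H3.1) in differentiated cells, with a median of 45.8. H3.1 was the highest library in each state and the only line that was not lower after differentiation. The difference was -0.37 on the log2 scale (SE 0.17) and was not called without a line term (limma adjusted p = 0.0645). In that fit Itga5 was called lower once WT was left out (limma adjusted p = 0.0478) or H3.1 was left out (0.00725). With the line as a block it was called lower (adjusted p = 0.000685), so that 3 of the 9 genes, Itga3, Itga5 and Itgav, were lower in the blocked fit, which called 33.3% of all genes lower. Scaling the libraries by their median ratio also gave 3, where 29.3% of all genes were lower and 29.2% higher (adjusted p = 0.0458 for Itga3 and 0.0486 for Itga5), and over the 18 alternatives the adjusted p of Itga5 ran from 0.000685 to 0.135.

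**Figure D2:**
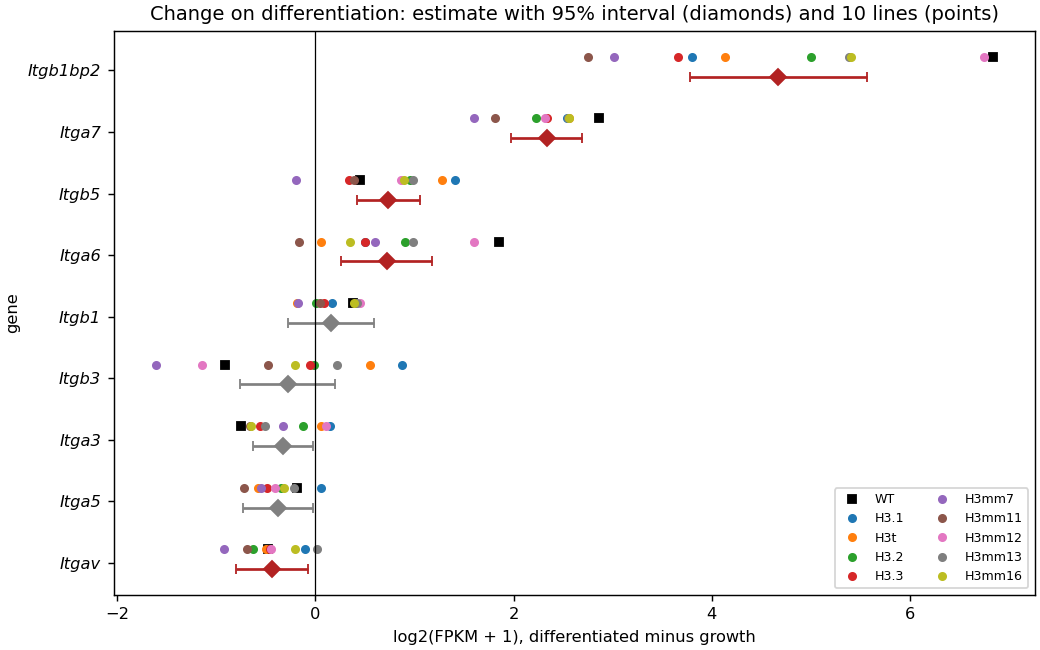
Difference between differentiated and growth cells on the log2(FPKM + 1) scale (x axis) for each gene (y axis). Diamonds with bars are the limma estimates and their 95% intervals, red where called at an adjusted p under 0.05 without a line block, and points are the 10 lines. The estimates run from -0.44 for Itgav to 4.67 for Itgb1bp2, and the lines lie on both sides of 0 for 7 genes.

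Of the beta chains only Itgb5 was called. Beta 5 pairs with alpha v in a receptor for vitronectin. Itgb5 lay between 23.5 (H3t) and 59.8 FPKM (H3mm7) in growth cells, with a median of 39.7, and between 49.6 (H3mm11) and 105 FPKM (H3.1) in differentiated cells, with a median of 67.4. The ranges overlapped, and 9 of 10 lines rose. H3mm7, the highest line in growth cells, went from 59.8 to 52.2 FPKM. The difference was 0.74 on the log2 scale (SE 0.15, limma adjusted p = 0.000274). Its known partner Itgav went the other way in 8 of the 9 lines in which Itgb5 rose.

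Promoter sequence was looked at for the called genes. The RefSeq promoter windows (GRCm38.p6) held 5 of the 9 genes, Itga3, Itga5, Itgav, Itgb1 and Itgb5, and did not hold Itga6, Itga7, Itgb3 and Itgb1bp2. E-boxes, written CANNTG and the same on both strands, are the sequences that MyoD and its relatives bind. The 250 bases before the start are shown for Itgb5, called higher, and Itgav, called lower, 5′ to 3′ on the gene's strand, with each E-box in capitals. The Itgb5 window is chr16:33829415-33829664 and the Itgav window chr2:83724147-83724396, both on the plus strand.

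Itgb5: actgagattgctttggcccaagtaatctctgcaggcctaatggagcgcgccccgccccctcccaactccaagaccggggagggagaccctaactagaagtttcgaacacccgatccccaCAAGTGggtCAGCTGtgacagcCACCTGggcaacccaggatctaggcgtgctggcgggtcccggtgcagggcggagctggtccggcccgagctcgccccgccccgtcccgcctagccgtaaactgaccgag

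Itgav: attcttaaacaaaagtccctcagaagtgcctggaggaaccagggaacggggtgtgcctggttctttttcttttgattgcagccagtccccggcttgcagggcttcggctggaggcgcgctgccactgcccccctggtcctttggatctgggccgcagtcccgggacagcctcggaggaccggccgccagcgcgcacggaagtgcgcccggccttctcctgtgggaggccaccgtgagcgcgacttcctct

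The Itgb5 window held 3 E-boxes and the Itgav window held 0. The first, CAAGTG, begins 131 bases before the start, the next, CAGCTG, begins 122 bases before it, and the last, CACCTG, begins 109 bases before it. Of 32851 such windows of 250 bases 66.2% held at least 1 E-box and 12.2% held 3 or more. CAGCTG was in 13% of them, and CACCTG, read on either strand, in 17.2%. Itgb1 held 0 and Itga5 held 1, and each of the 2 starts of Itga3 held 1. A match is a description of the letters in these windows, and no binding was measured here.

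Itgb1, the partner of alpha 3, alpha 5, alpha 6 and alpha 7, lay between 212 (H3mm7) and 580 FPKM (WT) in growth cells, with a median of 282, and between 188 (H3mm7) and 756 FPKM (WT) in differentiated cells, with a median of 319. H3mm7 and WT were at the ends in both states, and the ranges overlapped almost fully. The difference was 0.16 on the log2 scale (95% interval -0.27 to 0.59, limma adjusted p = 0.532). Itgb3, the chain of the alpha v beta 3 receptor, had the lowest median of the 8 integrin chains in both states, with 6.61 to 18.7 FPKM in growth cells and 2.56 (H3mm7) to 15.8 FPKM (H3t) in differentiated cells. It was higher in 3 lines and lower in 7, with changes from -1.61 in H3mm7 to 0.87 in H3.1 on the log2 scale. The mean difference was -0.28 (95% interval -0.76 to 0.20, limma adjusted p = 0.316).

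The order of levels shows the same shift. In growth cells the medians ran from Itgb1 through Itga5, Itga7, Itgb5, Itgav, Itga3, Itga6 and Itgb3 to Itgb1bp2. Itgb1 was above Itga5 in 10 of 10 libraries, but Itga5 was above Itga7 in 7 and Itgav above Itga3 in 6, so those neighbours were not set apart. In differentiated cells Itga7 came next to Itgb1 and was above the gene ranked below it, Itgb5, in 10 of 10 libraries. Itgb1 was above Itga7 in 7 of 10. Itga6, Itgb1bp2, Itgav and Itga3 had medians of 30.0, 26.4, 23.6 and 22.4 FPKM, and Itga6 was above Itgb1bp2 in 5 of 10 libraries, Itgb1bp2 above Itgav in 5 and Itgav above Itga3 in 6.

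Among the 5 alpha chains, the laminin-binding ones made up 52.0% ± 6.66 (SD, n = 10) of the summed FPKM in growth cells and 81.9% ± 5.11 in differentiated cells. The lowest differentiated line was at 75.3% (H3t) and the highest growth line at 61.3% (WT), so the states did not overlap. Itga7 alone went from 28.1% ± 6.01 to 68.2% ± 4.88, and Itga5 from 32.5% ± 6.48 to 12.6% ± 4.24. The share of Itga6 was 9.70% ± 2.23 in growth and 8.13% ± 2.91 in differentiated cells, although its level rose. The ratio of Itga7 to Itga5 lay between 0.452 and 1.47 in growth cells and between 3.41 and 12.4 in differentiated cells. The sum of the 5 alpha chains was 207 ± 16.4 FPKM in growth and 441 ± 115 FPKM in differentiated cells. These shares add no test to those of the single genes. Itgb1 held 84.5% ± 5.48 of the 3 beta chains in growth and 80.5% ± 5.57 in differentiated cells.

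**Figure D3:**
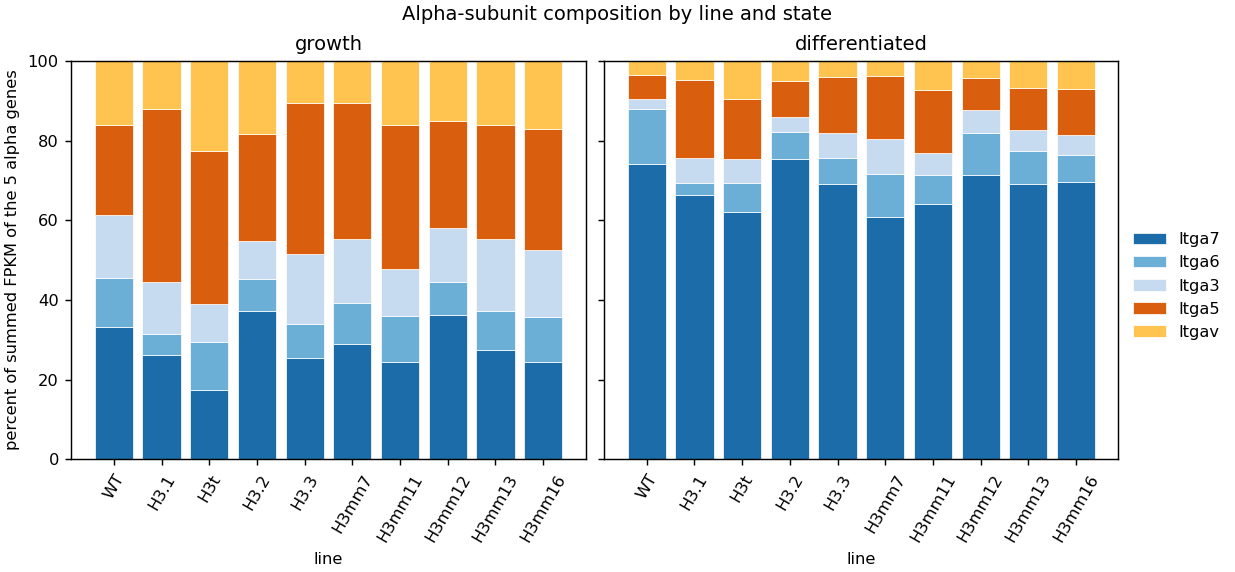
Share of each alpha chain in the summed FPKM of the 5 alpha genes (y axis, percent from 0 to 100) in each line (x axis), in growth cells (left) and differentiated cells (right), with 1 library per bar. Blue shades are laminin-binding and orange shades RGD-binding chains. The blue part spans 38.9% to 61.3% in growth and 75.3% to 90.6% in differentiated cells.

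The differentiated lines differed in how high their muscle genes stood. The mean log2(FPKM + 1) of 10 muscle markers was 7.43 to 7.88 in H3mm11, H3t, H3.1, H3mm7 and H3.3, and 8.55 to 9.16 in H3.2, H3mm13, H3mm16, WT and H3mm12, with no line between. Because the lines form 2 clusters of 5, no correlation was computed. Itgb1bp2 was at 6.73, 19.3, 15.2, 8.83 and 13.1 FPKM in the first 5 lines in that order. It was at 33.6, 47.3, 50.4, 156 and 106 FPKM in the other 5, so that the 5 lines with the highest marker means also had the 5 highest Itgb1bp2 levels. Itga7 did not separate in this way: H3.1, with a marker mean of 7.74, had 366 FPKM, and H3mm16, with a marker mean of 8.68, had 290 FPKM. Itga6 was highest in WT and H3mm12, at 88.0 and 56.7 FPKM, and lay between 17.4 and 36.1 FPKM in the other 8 lines. Hspa5, the chaperone BiP of the endoplasmic reticulum, which rises under stress of that compartment, was at 1687 to 3688 FPKM in the differentiated libraries of H3.2, H3.3, H3mm7 and H3mm11 and at 205 to 665 FPKM in the other 6. H3mm7 and H3mm11, with the lowest Itga7 and Itgb1bp2, are among the former 4. H3.2, also among them, had Itga7 at 357 FPKM and Itgb1bp2 at 33.6 FPKM. H3.3, with the highest Hspa5, had 280 and 13.1 FPKM. H3t, with Hspa5 at 263 FPKM, had Itga7 at 236 FPKM. The part of Hspa5 in these differences was not tested.

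**Figure D4:**
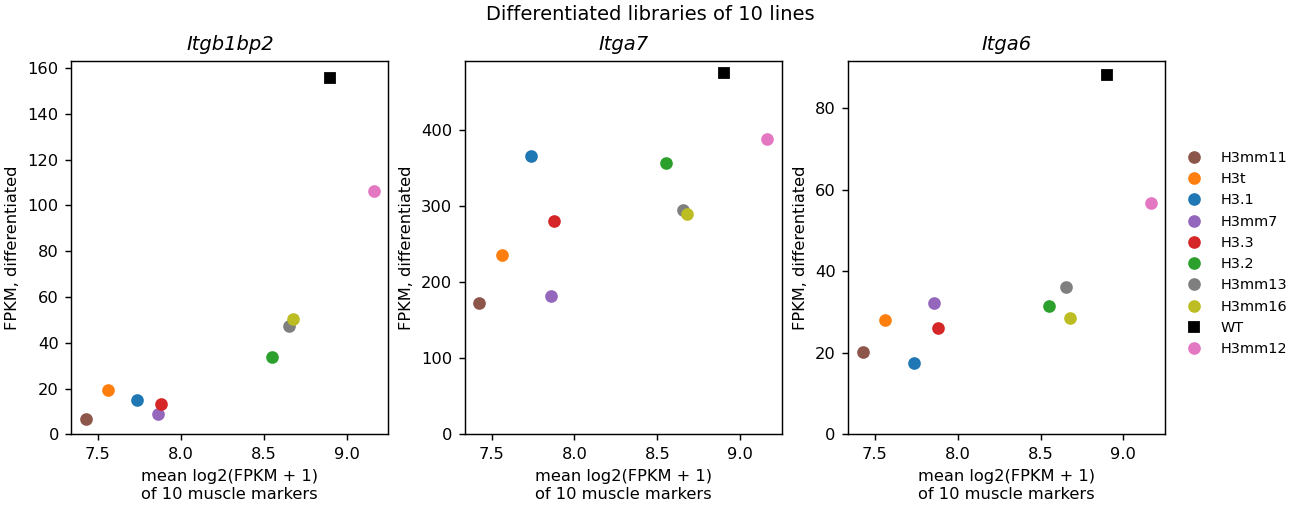
FPKM of Itgb1bp2, Itga7 and Itga6 (y axes, from 0) against the mean log2(FPKM + 1) of 10 muscle markers (x axes) in the differentiated library of each of 10 lines, with WT as the black square. The lines form clusters at 7.43 to 7.88 and at 8.55 to 9.16, and Itgb1bp2 is at 6.73 to 19.3 FPKM in the first and at 33.6 to 156 FPKM in the second.

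Once the mean of each state was removed, some of the 9 genes varied together over the 20 libraries. This is given as a description without p-values, since the libraries share lines and a common scaling. Of 36 pairs, Pearson's r was highest for Itga6 with Itgb1bp2 (0.77, and 0.63 over 18 libraries without WT), Itga3 with Itgb5 (0.72, and 0.71 without WT) and Itga7 with Itgb1bp2 (0.67, and 0.56 without WT). Within single states, Itga7 with Itgb1bp2 had an r of 0.82 over the differentiated libraries and -0.28 over the growth libraries. For Itga6 with Itgb1bp2 these were 0.84 and 0.37. WT was the highest differentiated library for Itga6, Itga7 and Itgb1bp2, and no r within a single state was computed without WT. In growth cells Itgb1bp2 was close to the floor. Itgav with Itgb1 had an r of 0.52, which was 0.88 without WT. Itga6 with Itgb1 fell from 0.58 to 0.23 without WT, so that value rested on WT. The lowest r was -0.51, for Itga5 with Itga6. For Itgav with Itgb5 the r had opposite signs in the states as well, at -0.97 over the 10 growth libraries and 0.44 over the 10 differentiated libraries.

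Among 10666 genes above 0 in every library that averaged 1 FPKM or more, the pattern most like that of Itgb1bp2 over the 20 libraries was that of Trim72, a membrane repair protein of muscle (Pearson's r = 0.996 on log2(FPKM + 1), and 0.97 once state means were removed), followed by Unc45b, a myosin chaperone (r = 0.996, and 0.97 within states). The libraries lie in 2 states, so a step between the states raises such an r. For Itga7 they were Atp2a1, the calcium pump of the sarcoplasmic reticulum, and Snapin (both r = 0.98, with 0.76 and 0.81 within states). Itgb1 was nearest to Atp2c1, a calcium pump of the Golgi (0.96), and Msl1 (0.95). Both values were about as high within states (0.95 and 0.95). In WT, Itgb1 lay above every GFP-H3 line in both states. It was at 580 FPKM against 212 to 406 in growth cells and at 756 FPKM against 188 to 395 in differentiated cells. The r values with the nearest genes include WT and were not computed without it, so the part of WT in them was not tested. Itgb5 was nearest to Itfg3 (0.96) and Ralgds (0.94), Itga6 to Pdhx, a component of pyruvate dehydrogenase (0.93), and 1810026J23Rik (0.92), and Itgav to Fmn1, a formin (0.93), and Usp34, a deubiquitinase (0.92). For Itga5 they were Brsk1 and Col5a2, a fibrillar collagen (both 0.87), for Itgb3 Klhdc8a (0.85) and Dab2, an endocytic adaptor (0.80), and for Itga3 Nckipsd (0.84) and Ppp1r16a (0.82).

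The type of the tagged H3 made no call among the 9 genes. Within each state, the 6 lines with an H3.3-type protein were set against the 3 with an H3.1/H3.2-type protein by limma on the 18 GFP-H3 libraries. In growth cells 0 of the 9 were called at an adjusted p under 0.05, where 27 of all genes tested were (0.246%), and 2 of the 9 had an unadjusted p under 0.05. These were Itgb5, 0.52 higher on the log2 scale in H3.3-type lines (95% interval 0.06 to 0.98, limma adjusted p = 0.444), and Itgb1, with a difference of -0.42 (95% interval -0.82 to -0.02, limma adjusted p = 0.492). In differentiated cells 0 of the 9 were called, against 269 of all genes tested (2.46%), and 0 of the 9 had an unadjusted p under 0.05. Itgb3 had the largest estimate there, at -0.64 (95% interval -1.34 to 0.06, limma adjusted p = 0.290), followed by Itgav at -0.47 (95% interval -1.02 to 0.08) and Itga5 at -0.44 (95% interval -0.94 to 0.05). The estimate for Itga5 turned on single lines: it was -0.73 and called without H3.2 (limma adjusted p = 0.0472), and -0.08 without H3.1 (adjusted p = 0.861), the line with 107 FPKM.

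The intervals leave room for differences of more than 1 on the log2 scale for Itgb1bp2 in both states (-1.26 to 1.27 in growth and -1.08 to 1.46 in differentiated cells). For Itga7 they ran from -0.57 to 0.50 and from -0.82 to 0.25. The test of whether the type difference itself differed between states called 0 of all genes tested (0%), with 1002 at an unadjusted p under 0.05, and 3 genes, none of them among the 9, with the line as a block. Of the 9, Itgb3 (-1.02, 95% interval -2.01 to -0.03, limma adjusted p = 0.537) and Itgb5 (-0.67, 95% interval -1.31 to -0.02, limma adjusted p = 0.536) had an unadjusted p under 0.05.

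**Figure D5:**
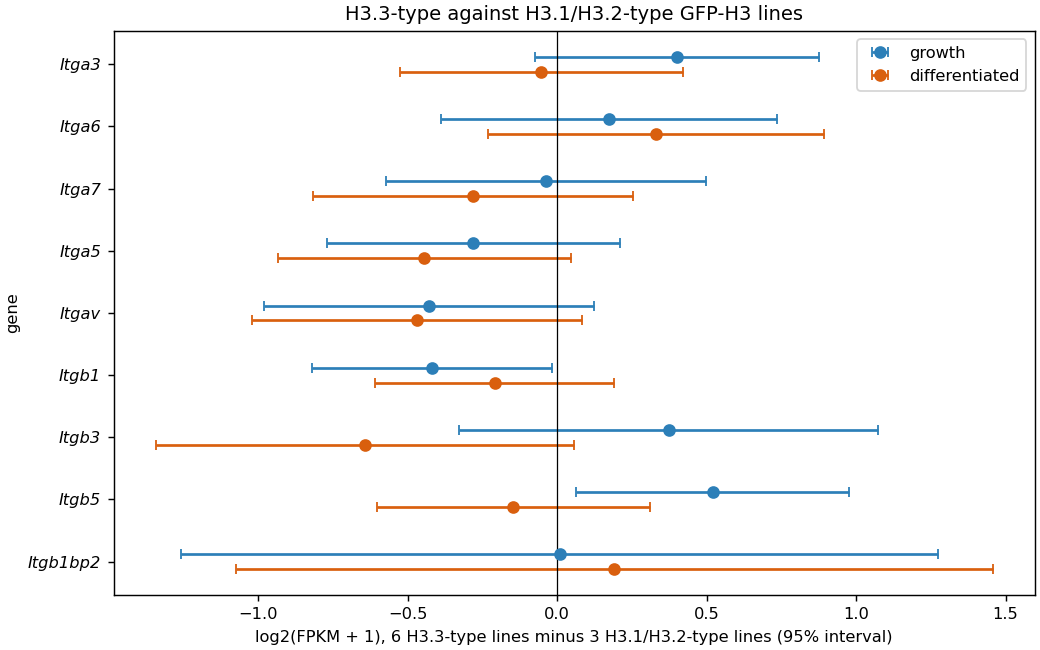
Difference between the 6 H3.3-type and the 3 H3.1/H3.2-type lines on the log2(FPKM + 1) scale (x axis) for each gene (y axis), in growth (blue) and differentiated cells (orange). Points are limma estimates and bars their 95% intervals. None of the 18 differences was called after adjustment over all genes, and the interval excludes 0 for Itgb5 and Itgb1 in growth cells.

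WT cells, with no GFP-H3, have 1 library in each state, so they were placed against the range of the 9 GFP-H3 lines without a test. Itgb1 was above that range in both states, at 580 FPKM against 212 to 406 in growth and at 756 FPKM against 188 to 395 in differentiated cells. Itgb1bp2 was above it at 156 FPKM against 6.73 to 106 in differentiated cells. In growth cells Itgb1bp2 was at 0.373 FPKM against 0 to 0.220, where all values are near the floor. Itga5 was below the range in both states, at 43.7 FPKM against 51.6 to 103 in growth and at 38.3 FPKM against 43.0 to 107 in differentiated cells. Itgb3 was above the range in growth cells, at 18.7 FPKM against 6.61 to 12.6. Itga6 and Itga7 were above it in differentiated cells, at 88.0 FPKM against 17.4 to 56.7 and at 476 FPKM against 173 to 389. Itga3, Itgav and Itgb5 lay within the range in both states. Such placings were common in these WT libraries: 25.9% of all genes tested were above and 22.5% below the 9 lines in growth, and 22.5% were above and 17.5% below in differentiated cells.

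Other integrin chains were few. Of 19 further subunits measured, 16 had a mean under 1 FPKM, and 14 of these were under 1 FPKM in every library, among them Itga1, Itga2 and Itga11, chains of collagen receptors, and Itga4, a chain of receptors for fibronectin and VCAM1. The other 2 untested chains were Itgb2 and Itgb6. Itgb2 had a median of 0.0939 FPKM in growth and 2.22 FPKM in differentiated cells, and was higher in 10 of 10 lines. Itgb6 had medians of 0.429 and 0.845 FPKM and reached 4.88 FPKM in a differentiated library. Of the 3 tested, Itgb8, a partner of alpha v, rose from a median of 1.17 to 4.72 FPKM (1.28, SE 0.18, limma adjusted p = 4.63e-06). Itgb7 and Itga10 passed the filter on low values only through the state in which they were high, so their levels are given without a test. Itgb7, a beta chain known from lymphocytes, lay between 3.62 and 12.3 FPKM in growth cells and between 0.233 and 2.39 FPKM in differentiated cells. The sum of the 7 leukocyte and platelet markers was 1.00 to 9.73 FPKM in growth (median 1.51) and 0.766 to 4.26 FPKM in differentiated cells (median 2.08). Cd68 was lower in 9 of 10 lines but was not called (limma adjusted p = 0.259). Pf4 was higher in 8 lines and Ppbp in 6. Ppbp reached 7.39 FPKM, Pf4 2.63 FPKM and Ptprc 0.0662 FPKM. The part of these markers in the level of Itgb7 was not tested. Itga10, a collagen-binding chain, lay between 0.0887 and 0.301 FPKM in growth cells and between 0.484 and 4.74 FPKM in differentiated cells.

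Of 27 genes for adaptors and focal adhesion proteins, which couple integrins to actin, 24 were tested. Of these 3 were called higher, 10 lower and 11 neither, where 30.5% of all genes tested were higher and 28.1% lower, with a median difference of -0.22 on the log2 scale against 0.04 over all genes tested. The largest falls were those of the kinase Src (-1.31), the parvin Parvb (-1.18), the tensin Tns3 (-1.12) and the actin crosslinker Flna (-1.12), each lower in 10 of 10 lines. The 3 that rose were the second talin gene Tln2 (0.56), the scaffold Pxn (0.53) and the actin regulator Vasp (0.53). The main talin Tln1, with a median of 87.9 FPKM in growth and 81.6 FPKM in differentiated cells, and the integrin-linked kinase Ilk, with 155 and 125 FPKM, were not called.

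Of 26 genes for matrix ligands 22 were tested, and 7 were called higher, 9 lower and 6 neither, with a median difference of -0.07 on the log2 scale. The 7 higher are about the share of all genes called higher (30.5%), and 28.1% of all genes were called lower. Lama2, the laminin alpha chain of the muscle basement membrane, rose from a median of 0.961 to 8.84 FPKM (2.36, SE 0.29, limma adjusted p = 5.77e-07). Col6a1 (1.65), Postn (1.08) and Fn1, which encodes fibronectin (0.86), were the next largest rises, and Fn1 went from a median of 450 to 934 FPKM. The largest falls were those of Ctgf (-3.07), Tnc, which encodes tenascin C (-2.56), the laminin chain Lamb3 (-1.05) and Spp1, which encodes osteopontin (-1.04). Among the other laminin chains, Lamb2 rose by 0.63 and Lamb1 fell by 0.68 on the log2 scale.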

How the data were processed

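mRNA-Seq of 10 C2C12 lines, each with 1 growth and 1 differentiated library, was used. Per the labels, RNA was copied with an oligo dT primer. For the GFP-H3 lines the authors used TopHat 2.0.8 against mm9, and the deposited values are FPKM that cuffdiff of Cufflinks 2.0.1 estimated with its defaults. The mapping of WT reads is not given in the sources used here, and depth is unknown. The 3′-seq tables of tissues were not used here.

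FPKM were tested as log2(FPKM + 1) with limma 3.58.1 (R 4.3.3, trend and robust settings, genes averaging 1 FPKM or more, Benjamini-Hochberg adjustment over 10954 genes). The script was run on simulated data in which each library was drawn independently, so that run does not cover libraries that share a line. The states were compared over 20 libraries, and H3 types over the 18 GFP-H3 libraries. The libraries of a line are paired, since they come from the same line: their deviations from the state means correlated with r between 0.273 and 0.877, over 0.1 in 10 of 10 lines. The fit with the line as a replicate block is given beside a result where it changed the call. Alternatives were the pseudocount, the filter, the scaling, the limma settings, the block and each line left out.

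All 9 genes were named, with the 2 genes nearest to each by Pearson's r, every other integrin subunit tested, and up to 4 of the largest rises and falls called in each list. Lamb1, Lamb2, Tln1, Ilk, the untested subunits and the marker genes named were added after their values were seen. The members and lists were chosen with earlier results of these data known. Loci are from the mm9 annotation, and promoter windows from RefSeq (GRCm38.p6). Figures were drawn with matplotlib.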

Additional observations from a re-analysis of the deposited data

Results flagged for a closer look

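In each state the highest and the lowest of the 10 lines were compared with the rest for each of the 9 genes on the log2(FPKM + 1) scale, 18 groups in all, and 2 groups held a line whose gap to its nearest neighbour was over 0.466 of the whole range. Chance alone gives about 1 such group in 20. Itga5 in the differentiated H3.1 library, at 107.1 FPKM, stood above the other 9 lines with a gap of 0.603 of the range. Itgb1 in the differentiated WT library, at 756 FPKM, stood above the other 9 with a gap of 0.467 of the range.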

How the results depend on the processing

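Itga7, Itgb5 and Itga6 stayed called higher under all 18 alternatives, with differences of 2.26 to 2.42, 0.66 to 0.84 and 0.59 to 0.82 on the log2 scale. Itgb1 and Itgb3 were called under none. Itgb1bp2 was called higher in each as well, at 2.77 to 6.85. It passed the filter on low values only through its differentiated libraries, so its calls add no support. The number called lower, 1, was 0 without the filter on low values, 3 with median-ratio scaling, 3 with the line as a replicate block and 0 to 3 with 1 line left out (3 without H3.1, 0 without H3.2 or H3mm11), while the differences kept their sign (Itgav -0.49 to -0.38, Itga5 -0.42 to -0.34, Itga3 -0.38 to -0.28). Without WT the gene called lower was Itga5 in place of Itgav, and without H3mm12 it was Itga3. The block changed no call of the 9 genes but those of Itga3 and Itga5. All-gene counts for H3 type moved more. In growth cells, 27 became 50 and 13 with pseudocounts of 0.1 and 5 FPKM, 16 when genes averaged 5 FPKM or more, and 2 to 28 with a line left out (2 without H3.1, 7 without H3t, 9 without H3.2, 13 without H3.3, 11 without H3mm7, 7 without H3mm13 and 6 without H3mm16). In differentiated cells, 269 became 140 without the filter, 156 with the filter at 5 FPKM, and 8 (without H3.1) to 773 (without H3.2) with a line left out (27 without H3t, 65 without H3.3, 48 without H3mm11, 86 without H3mm13 and 94 without H3mm16), where 0 to 1 of the 9 were called. For the interaction, 0 became 4 with a pseudocount of 5 FPKM, 5 without the filter, 1 with the filter at 5 FPKM, 4 with quantile normalization, 3 with the replicate block and 0 to 2 with a line left out. The cause was not tested.

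Uncalled type differences near 0 changed sign. In growth cells Itgb1bp2 was -0.0207 with a pseudocount of 0.1 FPKM and -0.0675 with quantile normalization. With a line left out, the ranges in growth were -0.0287 to 0.0453 for Itgb1bp2, -0.0817 to 0.47 for Itga6 and -0.30 to 0.16 for Itga7. In differentiated cells they were -0.26 to 0.21 for Itga3, -0.31 to 0.10 for Itgb5 and -0.22 to 0.54 for Itgb1bp2. For the interaction they were -0.31 to 0.00926 for Itga5, -0.0580 to 0.37 for Itga6, -0.15 to 0.11 for Itgav and -0.27 to 0.53 for Itgb1bp2. The laminin-binding share was 51.9% in growth and 81.3% in differentiated cells with every measured alpha chain in the sum. Quantile normalization and median-ratio scaling left the median of all genes within 0.1 on the log2 scale. With no read counts, the counting error of values near 0 FPKM is unknown.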
